A study of Mus musculus with 16 samples.

Results

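Genes that mark fibroblasts in most mouse organs were followed in RNA sequencing of lymphatic endothelial cells sorted from the heart. They are Dcn, Lum, Dpt, Pdgfra, Gsn, Mfap5, Fbln1, Smoc2, Thy1 and Apod, chosen by symbol, and all 10 were among the 15895 genes listed and among the 13033 genes tested. The cells came from hearts of CD1 mice and carried the label CD45-/CD31+/Podoplanin+, that is, negative for a leukocyte antigen and positive for an endothelial and a lymphatic surface protein. The 4 groups were a sham operation at postnatal day 1 (sham P1), myocardial infarction at postnatal day 1 (MI P1), a sham operation at postnatal day 56 (sham P56) and MI at postnatal day 56 (MI P56), all taken 3 days after surgery, with 4 libraries each. Neonatal ventricles were pooled by 6, cut up and digested under agitation, whereas adult hearts, all male, were perfused with the enzyme, so that age cannot be told apart from sex, pooling and digestion. The libraries carry no statement that they came from separate animals or pools, so p-values measure the spread between these libraries.

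Fibroblasts build and maintain the collagen-rich matrix between the cells of the heart, and after an infarct they turn into matrix-secreting, contractile cells that lay down the scar. Dcn and Lum encode decorin and lumican, small leucine-rich proteoglycans that bind collagen fibrils, and Dpt encodes dermatopontin, which binds decorin and collagen. Mfap5 and Fbln1 encode a microfibril-associated glycoprotein and fibulin-1 of the elastic fibre and basement membrane matrix, and Smoc2 a calcium-binding matricellular protein of the SPARC family. Pdgfra is the receptor for PDGF-A and PDGF-C that defines fibroblasts in many tissues, and Thy1 encodes the surface protein CD90. Gsn encodes gelsolin, which severs actin filaments and also exists as a secreted plasma protein, and Apod encodes apolipoprotein D, a secreted lipid carrier. In sorted endothelial cells such transcripts can come from the sorted cells or from other cells and free RNA, and in bulk RNA more cells of a type and more RNA per cell cannot be told apart.

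Depth ran from 17103319 to 43837520 reads on the genes listed. In 3 libraries fewer than 10000 genes had a read (sham P1 libraries 1 and 2 and MI P56 library 5, numbered as in the table's columns), and values below are from the other 13, namely 4 of sham P56, 3 of MI P56, 2 of sham P1 and 4 of MI P1. These 13 held 6709566 to 12918569 reads outside Uqcrc1 and mitochondrial ribosomal RNA, and 3 reads were worth 0.0489 to 0.109 in the deposited unit, reads counted per library total and scaled by TMM, the unit called scaled CPM here. Uqcrc1 took 47.3% of the reads of sham P1 library 5, which had the fewest other reads of the 13. In the rest of the 13 it took 0.093% to 4.11%. The 3 libraries left out held 6376296 (sham P1 library 1), 321929 (sham P1 library 2) and 41346 (MI P56 library 5) other reads. Uqcrc1 took 18.1%, 98.6% and 99.8% of their reads, in this order, and the fits with all 16 libraries include them. Lymphatic markers were detected. Lyve1, a hyaluronan receptor of lymphatic vessels, stood at 231 ± 40.0 (SD, n = 2) scaled CPM per kilobase of exon in sham P1 and 145 ± 81.1 (SD, n = 3) in MI P56. Of 10 lymphatic markers 9 were in the table, none at 0. Pdpn, which encodes podoplanin, had group means of 14.4 to 17.7 scaled CPM. The purity of the sorted cells was not tested.

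Of the 10 genes, Gsn and Apod had the largest differences between the ages, and the bases before their annotated starts are shown for that reason. Of the 10, 5 had an entry in the RefSeq promoter table (build GRCm38.p6), with 3 starts for Gsn and 1 for Apod. The windows hold the 250 bases before each start, 5′ to 3′ on the gene's strand. Capitals mark matches on either strand to 4 motifs, which are the TATA box with the letters TATAAA, the site of the AP-1 factors with TGANTCA, an E-box of helix-loop-helix proteins with CAGCTG, and the box bound by Sp1 with GGGCGG. The matches did not overlap each other.
Gsn, start 1, chr2:35256109-35256358, plus strand: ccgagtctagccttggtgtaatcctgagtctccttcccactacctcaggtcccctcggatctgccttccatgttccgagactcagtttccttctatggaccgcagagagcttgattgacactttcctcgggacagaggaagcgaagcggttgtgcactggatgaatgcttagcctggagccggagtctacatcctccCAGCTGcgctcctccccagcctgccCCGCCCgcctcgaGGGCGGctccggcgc
Gsn, start 2, chr2:35266494-35266743, plus strand: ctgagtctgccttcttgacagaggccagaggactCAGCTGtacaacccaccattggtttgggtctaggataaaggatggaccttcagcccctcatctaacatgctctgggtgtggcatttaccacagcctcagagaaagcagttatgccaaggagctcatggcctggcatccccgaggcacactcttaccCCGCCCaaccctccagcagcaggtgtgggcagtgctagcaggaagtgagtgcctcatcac
Gsn, start 3, chr2:35282130-35282379, plus strand: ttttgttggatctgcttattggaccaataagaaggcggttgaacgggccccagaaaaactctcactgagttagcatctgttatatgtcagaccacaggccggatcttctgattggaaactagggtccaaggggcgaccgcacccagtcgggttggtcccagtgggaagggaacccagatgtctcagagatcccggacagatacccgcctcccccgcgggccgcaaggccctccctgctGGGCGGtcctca
Apod, chr16:31314809-31315058, minus strand: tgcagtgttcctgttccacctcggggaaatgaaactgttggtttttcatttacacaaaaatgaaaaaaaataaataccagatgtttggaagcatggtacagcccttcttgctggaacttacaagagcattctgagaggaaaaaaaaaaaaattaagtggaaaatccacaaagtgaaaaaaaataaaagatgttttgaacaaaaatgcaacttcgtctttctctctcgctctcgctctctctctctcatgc
The first Gsn window held 1 CAGCTG and 2 GGGCGG, the second 1 of each, and the third 1 GGGCGG, while the Apod window held none of the 4 motifs. Among 32851 windows of this length, 32.7% held the letters GGGCGG, 12.4% held TATAAA and 6.75% held TGANTCA, and CAGCTG stood in 4271 of the 32851. Windows 2 and 3 lie inside the annotated span of Gsn, and the values per gene do not separate transcripts from the 3 starts.

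Per kilobase of exon, Dcn, Dpt and Lum were the most abundant of the 10 in both neonatal groups and in MI P56, and Dcn, Gsn and Dpt were in sham P56. The mean level of Dpt was 123 ± 64.1 (SD, n = 2) scaled CPM per kilobase in sham P1, ahead of Dcn at 92.5 ± 56.6 and Lum at 85.3 ± 51.1, and the ranges of the 3 genes overlapped. The same order held in MI P1, with 60.3 ± 22.7, 45.9 ± 16.3 and 35.9 ± 17.0 (SD, n = 4). In sham P56 Dcn stood at 126 ± 75.7 and Gsn at 119 ± 90.9 scaled CPM per kilobase, with Dpt at 57.0 ± 32.6 and Lum at 56.6 ± 48.6 (SD, n = 4). In MI P56 the order was Dcn with 105 ± 33.8, Dpt with 80.7 ± 41.1, Lum with 75.5 ± 18.5 and Gsn with 39.2 ± 11.9 (SD, n = 3), and these 4 ranges overlapped from each gene to the next except from Lum to Gsn. Thy1, at 9.57 to 16.7 on average, came next below them in all groups other than MI P56. Smoc2 was at 1.23 to 4.34 and Apod was the lowest of the 10 in both neonatal groups. For comparison, the means of Prox1, the transcription factor of lymphatic identity, were 30.9 in sham P56, 22.6 in MI P56, 44.2 in sham P1 and 40.4 in MI P1 on this scale, below those of Dcn and Dpt in each group.

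**Figure D1:**
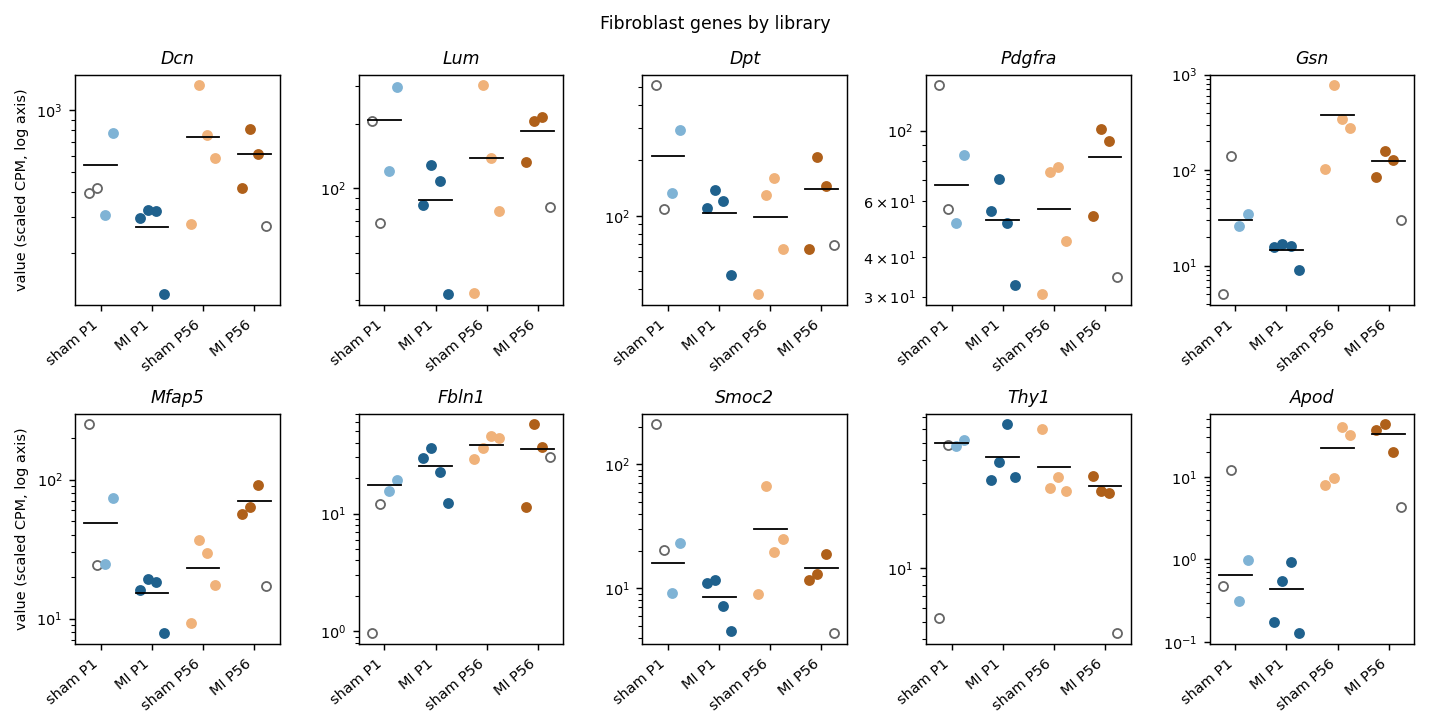
Value of each of the 10 genes in scaled CPM (log axis) in every library of the 4 groups, with filled points for the 13 libraries used, open points for the 3 with few genes detected, and a line at the mean of the filled points. Among the filled points Gsn and Apod separate the ages, and Mfap5 in MI P56 (56.2 to 92.3) lies above sham P56 (9.21 to 36.9). The open points of sham P1 library 2 for Gsn (141) and Apod (12.1) and of MI P56 library 5 for Mfap5 (17.3) fall inside the range of sham P56.

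At P56, 1 of the 10 genes differed between MI and sham, and this was Mfap5, whose mean after MI was 3.03 times that of sham. Of all genes tested, 3.42% were called (limma-trend on log2(value + 1), Benjamini-Hochberg adjusted p under 0.05 over 13033 genes, two-sided), so the share among the 10 rests on a single gene. Mfap5 (chr6:122505845-122529290, plus strand) encodes a glycoprotein that binds fibrillin microfibrils. It stood at 9.21, 36.9, 29.6 and 17.4 scaled CPM in sham P56 libraries 1, 2, 3 and 5 and at 56.2, 63.1 and 92.3 in MI P56 libraries 1, 2 and 3. Every MI library lay above every sham library, which was so, in either direction, of 13.8% of all genes. The log2 change of Mfap5 was 1.69 ± 0.42 (SE), with an adjusted p of 0.0287 by limma. The call was lost without sham P56 library 1 (adjusted p = 0.0668) or 5 (0.0663) and without MI P56 library 1 (0.0523), 2 (0.0663) or 3 (0.174), and with all 16 libraries, where 0.174% of genes were called, the log2 change was 1.21 with an adjusted p of 0.696.

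Gsn (chr2:35256380-35307892, plus strand) had a lower mean after MI at P56, which did not pass the test. Its values were 104, 778, 340.0 and 275 scaled CPM in sham P56 libraries 1, 2, 3 and 5, against 84.8, 160.1 and 126 in MI P56 libraries 1, 2 and 3. The groups overlapped through sham library 1 alone, and the ratio of the means was 0.330. The log2 change of Gsn was -1.30 ± 0.43 (SE), with an adjusted p of 0.113 by limma, and without sham P56 library 1 the adjusted p was 0.0058. DESeq2 on the recovered reads gave Gsn an adjusted p of 0.0080 and edgeR's quasi-likelihood test 0.0883. With all 16 libraries, where 0.174% of all genes were called, the log2 change was -1.78 ± 0.71 (SE), with an adjusted p of 0.508 by limma.

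The leucine-rich proteoglycans and the receptor did not pass the test at P56. Dcn (chr10:97479609-97518143, plus strand) read 277, 1330.0, 758 and 586 scaled CPM in sham P56 libraries 1, 2, 3 and 5 and 417, 812 and 609 in MI P56 libraries 1, 2 and 3, with a log2 change of -0.11 ± 0.44 (SE). The MI libraries of Dcn lay within the span of the sham libraries, which ran over more than a factor of 4. Lum (chr10:97565128-97572703, plus strand) read 32.1, 305, 139 and 78.7 against 133, 207 and 215, with a log2 change of 0.82 ± 0.55 (SE). Every MI library exceeded sham libraries 1 and 5, and sham library 2 was the highest of all. Dpt (chr1:164796644-164824266, plus strand) read 37.6, 129, 160.0 and 66.1 against 65.9, 207 and 144, and Pdgfra (chr5:75152292-75198215, plus strand) 30.6, 73.9, 76.9 and 44.8 against 54.0, 101 and 93.0, in the same order of libraries. Their log2 changes were 0.56 ± 0.46 and 0.59 ± 0.33 (SE), and both genes had overlapping groups.

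Of the remaining genes at P56, Fbln1 had a log2 change of -0.38 ± 0.41, Smoc2 of -0.69 ± 0.47, Thy1 of -0.28 ± 0.28 and Apod of 0.79 ± 0.47 (SE), and none passed the test. The median log2 change of the 10 genes was 0.23, beside 0.01 over all genes tested, and with all 16 libraries its sign turned, to -0.11 beside -0.17.

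At P1, none of the 10 genes differed between MI and sham, as 0% of all genes tested were called by limma. At an unadjusted p under 0.05 there were 485 of 13033 genes by limma, and edgeR's quasi-likelihood test called 0 genes and DESeq2 7. Mfap5 and Gsn were the members with every MI library below every sham library, a pattern found, in either direction, for 16.2% of all genes. Mfap5 read 24.9 and 73.4 scaled CPM in sham P1 libraries 3 and 5 and 16.1, 19.2, 18.4 and 7.80 in MI P1 libraries 1, 2, 3 and 5, with a log2 change of -1.49 ± 0.47 (SE) and an adjusted p of 1.00 by limma. Gsn read 25.7 and 34.6 against 15.7, 16.8, 16.03 and 9.09, with a log2 change of -1.04 ± 0.49 (SE). Both genes were lowest in MI P1 library 5.

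The proteoglycans had overlapping groups at P1. Dcn read 306 and 774 scaled CPM in sham P1 libraries 3 and 5 against 296, 325, 324 and 126 in MI P1 libraries 1, 2, 3 and 5, and its log2 change was -0.96 ± 0.50 (SE). Lum read 120.2 and 297 against 83.6, 128, 108 and 31.9, and Dpt 133 and 290 against 110.2, 137, 121 and 47.7. In all 3 genes sham library 5 was the highest and MI library 5 the lowest. The log2 changes of Lum and Dpt were -1.27 ± 0.62 and -1.02 ± 0.52 (SE), and the median over the 10 genes was -0.87, beside 0.02 over all genes. The 2 sham libraries differed by a factor of 2 or more in Dcn, Lum, Dpt, Mfap5, Smoc2 and Apod (0.316 and 0.978 scaled CPM).

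The response to MI at P56 minus that at P1 passed the test for 1 of the 10 genes, again Mfap5, while 0.483% of all genes were called. Its log2 difference was 3.19 ± 0.63 (SE), with an adjusted p of 0.0331 by limma. The mean of Mfap5 was 70.5 ± 19.2 (SD, n = 3) in MI P56 against 23.3 ± 12.4 (n = 4) in its sham group, and 15.4 ± 5.22 (n = 4) in MI P1 against 49.1 ± 34.3 (n = 2) in its sham group. Leaving out 1 library ended the call for sham P1 library 5 (adjusted p = 0.411), MI P1 library 1 (0.0718), 3 (0.0747) or 5 (0.0549), MI P56 library 1 (0.0567) or 3 (0.115) or sham P56 library 5 (0.0612), and the call was also lost with all 16 libraries (0.468, with 0.00755% of genes called), where sham P1 library 1 held Mfap5 at 251. Lum had a log2 difference of 2.08 ± 0.83 (SE) and Dpt of 1.57 ± 0.70 (SE), with adjusted p of 0.346 and 0.407 by limma, so neither passed. The median over the 10 genes was 0.90, beside -0.01 over all genes.

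**Figure D2:**
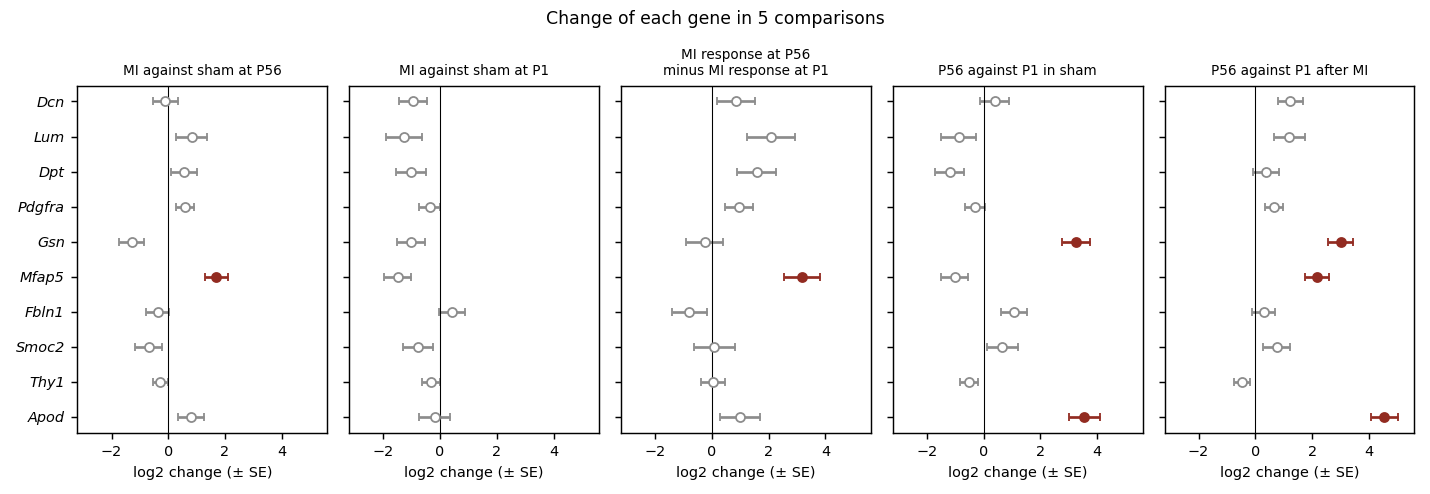
Log2 change ± SE of each gene in the 5 comparisons (limma-trend, 13 libraries), with filled points where the adjusted p was under 0.05. Mfap5 is filled in both comparisons of MI responses that involve P56, Gsn and Apod in both comparisons of age, and Mfap5 also in that of age after MI.

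Between the ages, Gsn and Apod were higher at P56 in sham hearts, by factors of 12.4 and 34.6 between the means, and the other 8 genes did not pass the test. The 2 called of 10 compare with 13.2% of all genes. Gsn read 25.7 and 34.6 scaled CPM in sham P1 libraries 3 and 5 against 104, 778, 340.0 and 275 in sham P56 libraries 1, 2, 3 and 5, without overlap. Its log2 change was 3.26 ± 0.49 (SE), with an adjusted p of 1.85e-04 by limma. Apod (chr16:31296192-31314808, minus strand) read 0.316 and 0.978, from 15 and 27 reads, against 7.87, 9.65, 39.7 and 32.3, from 351, 373, 2192 and 1901 reads. The sham P56 libraries of Apod fell into a lower pair (1 and 2) and a higher pair (3 and 5), all above the neonatal values. Its log2 change was 3.55 ± 0.53 (SE), with an adjusted p of 1.78e-04 by limma, and both calls held with each library left out and with all 16 libraries (adjusted p 0.0112 for Gsn and 0.0380 for Apod, with 3.91% of all genes called).

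Fbln1 (chr15:85205949-85286535, plus strand) was the third gene with every sham P56 library above both sham P1 libraries, a pattern that 33.0% of all genes showed in one direction or the other. It read 15.5 and 19.4 scaled CPM in sham P1 libraries 3 and 5 against 28.8, 36.0, 45.4 and 43.6 in sham P56 libraries 1, 2, 3 and 5. The log2 change of Fbln1 was 1.08 ± 0.46 (SE), with an adjusted p of 0.134 by limma, which became 0.0404 when only the 2 sham groups were fitted and 0.0455 without MI P56 library 1. With all 16 libraries the adjusted p of Fbln1 was 0.0624. Dpt and Mfap5 had lower means at P56, with log2 changes of -1.20 ± 0.52 and -1.02 ± 0.47 (SE) and adjusted p of 0.147 and 0.171. Dcn at 0.38 ± 0.50, Lum at -0.88 ± 0.62, Pdgfra at -0.30 ± 0.37, Smoc2 at 0.66 ± 0.53 and Thy1 at -0.51 ± 0.32 (log2 change ± SE) did not pass either. The median over the 10 genes was 0.04, beside 0.00 over all genes, and with all 16 libraries -0.07 beside 0.36.

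After MI, 3 of the 10 genes differed between the ages, where 5.35% of all genes were called, and Gsn, Mfap5 and Apod were all higher at P56. Gsn read 15.7, 16.8, 16.03 and 9.09 scaled CPM in MI P1 libraries 1, 2, 3 and 5 against 84.8, 160.1 and 126 in MI P56 libraries 1, 2 and 3, an 8.59-fold difference of means with a log2 change of 3.00 ± 0.43 (SE) and an adjusted p of 3.27e-04 by limma. Mfap5 differed 4.59-fold between the means, with a log2 change of 2.17 ± 0.42 (SE) and an adjusted p of 0.0039. Apod read 0.176, 0.549, 0.922 and 0.127, from 7 to 37 reads, against 37.1, 43.2 and 20.0, from 1226 to 2003 reads, with a log2 change of 4.54 ± 0.47 (SE) and an adjusted p of 1.25e-05. For these 3 genes no MI P1 library reached an MI P56 library, and the calls held with each library left out. With all 16 libraries 0.106% of all genes were called. Apod kept its call there (adjusted p = 0.0407 by limma), and Gsn (0.223) and Mfap5 (0.524) did not. MI P56 library 5 held Apod at 4.31 from 1 read, Gsn at 30.2 from 7 reads and Mfap5 at 17.3 from 4 reads.

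Dcn, Lum and Smoc2 also had every MI P56 library above every MI P1 library, which 20.6% of all genes showed in one direction or the other. Their log2 changes were 1.23 ± 0.44, 1.20 ± 0.55 and 0.75 ± 0.47 (SE), with adjusted p of 0.120, 0.249 and 0.442 by limma. When only the MI groups were fitted, where 1215 of 13033 genes were called, the adjusted p was 0.0208 for Dcn and 0.0416 for Lum. Without sham P56 library 2 in the fit of all groups, where 1344 of 12878 genes were called, it was 0.0432 for Dcn. With all 16 libraries, where 0.106% of all genes were called, it was 0.784 for Dcn and 0.948 for Lum. The median over the 10 genes was 0.98, beside 0.01 over all genes. The comparisons of age after MI, of age in sham and of MI at each age share libraries, so that their values are set side by side and not counted as separate evidence.

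The share of Dcn among the 10 genes was steadier than its level. Dcn is itself the largest part of the sum it is divided by, which by construction damps changes of its share. A share within a library does not depend on the scaling between libraries. In sham P56 the sum of the 10 genes ran from 596 in library 1 to 2794 scaled CPM in library 2, while Dcn made up 46.2% to 49.0% of it. Across the 4 groups the mean share of Dcn was 43.2% to 47.3%. With all 16 libraries the share of Dcn in sham P1 was 39.4% ± 11.1 (SD, n = 4), with 23.0% in library 1 from 3318 reads of Dcn. Gsn took 22.3% ± 4.38 (SD, n = 4) of the sum in sham P56, 9.33% ± 0.18 (n = 3) in MI P56, 2.80% ± 0.99 (n = 2) in sham P1 and 2.43% ± 0.39 (n = 4) in MI P1. The Gsn share in sham P56 (17.4% to 27.9%) and in MI P56 (9.13% to 9.47%) did not overlap, although the levels of Gsn did. The share of Dpt was 6.56% ± 2.24 in sham P56, 10.00% ± 2.51 in MI P56, 17.9% ± 0.40 in sham P1 and 16.7% ± 0.78 in MI P1 (SD).

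Of the 10 genes, 4 (Lum, Dpt, Pdgfra and Mfap5) had lower mean shares in sham P56, where the Gsn share was the highest, than in the other 3 groups. Lum made up 7.84% ± 2.41 of the sum in sham P56, 14.2% ± 1.72 in MI P56, 17.2% ± 1.18 in sham P1 and 13.6% ± 2.53 in MI P1 (SD). The ratio of Lum to Dcn was 0.116 to 0.229 in sham P56 and 0.255 to 0.352 in MI P56, and 0.253 to 0.394 in MI P1. These 2 neighbours on chromosome 10 lie 46984 bases apart on the same strand. Mfap5 made up 1.53% ± 0.20 of the sum in sham P56 and 5.55% ± 1.59 in MI P56 (SD). Between MI and sham at P56 the shares of 4 genes did not overlap, with Lum, Pdgfra and Mfap5 higher and Gsn lower after MI. The same 4 stood apart when MI P56 library 5 was added. That library held only 19 reads of Lum, 8 of Pdgfra, 4 of Mfap5 and 7 of Gsn, so its shares are coarse. The number of genes with shares apart was 5 for MI against sham at P1 (Pdgfra and Fbln1 higher, Lum, Dpt and Mfap5 lower), 5 for age in sham and 6 for age after MI. Shares of a sum move against each other, so these numbers are a description with no test and no counterpart over all genes.

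**Figure D3:**
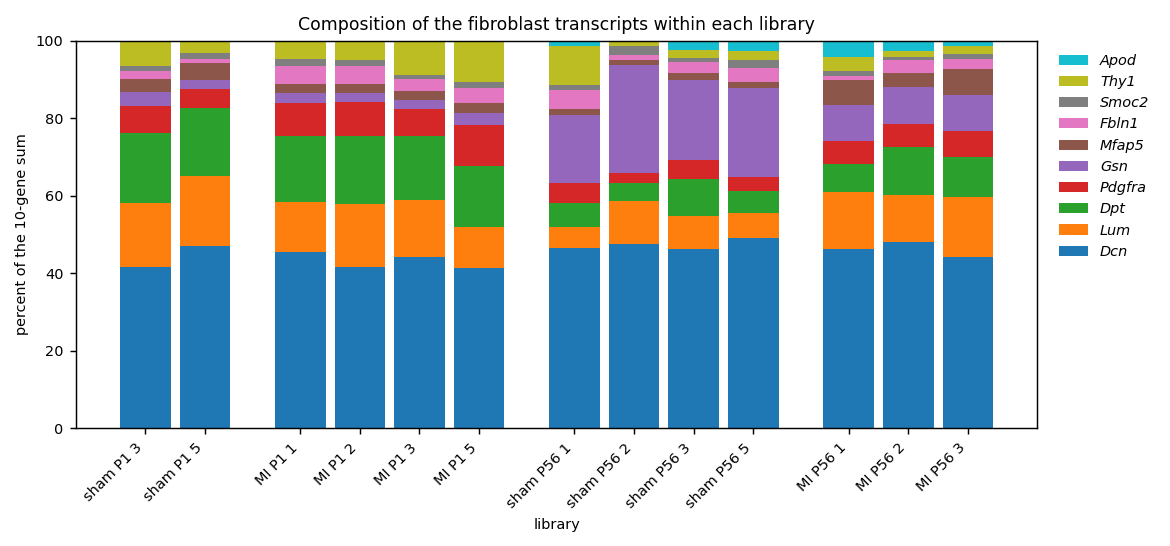
Share of each gene in the sum of the 10 genes (percent, stacked to 100) in each of the 13 libraries. Dcn stays between 41.5% and 49.0%, and Gsn widens from under 4% in both neonatal groups to 17.4% to 27.9% in sham P56 and 9.13% to 9.47% in MI P56.

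Thy1 (chr9:44043384-44048579, plus strand) did not follow Dcn. It read 48.1 and 51.9 scaled CPM in sham P1 libraries 3 and 5, 31.1, 39.1, 63.5 and 32.2 in MI P1 libraries 1, 2, 3 and 5, 59.6, 28.1, 32.3 and 26.8 in sham P56 libraries 1, 2, 3 and 5, and 32.8, 26.99 and 26.2 in MI P56 libraries 1, 2 and 3. All 4 groups overlapped in the pairs compared, and the highest library of sham P56, library 1, was the one in which each of the other 9 genes was lowest in that group. The antibody mix of the sort held one against CD90, the Thy1 product, while the label of the sorted cells names no CD90 gate.

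Smoc2 (chr17:14279506-14404790, plus strand) and Pdgfra followed Dcn more closely than Thy1 did. Smoc2 read 9.03, 67.0, 19.6 and 25.1 scaled CPM in sham P56 and 11.7, 13.1 and 18.8 in MI P56, against 9.11 and 23.0 in sham P1 and 10.9, 11.6, 7.13 and 4.55 in MI P1, in the same library order. Sham P56 library 2 was the highest of its group, as for Dcn, Lum, Gsn and Mfap5. Pdgfra read 51.1 and 83.8 in sham P1 and 55.8, 70.2, 51.3 and 32.6 in MI P1. Its exons overlap those of Gm42802, Gm42803 and Mir7025, which are not listed in the table, and whether the counting used strand is not given in the sources used here. Fbln1 in MI P1 read 30.0, 36.0, 22.7 and 12.4, and in MI P56 11.3, 57.4 and 36.6, where library 1 was the lowest of all adult libraries.

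Likeness was measured as the root mean square difference of log2(value + 1) after centring each gene on its mean over the 13 libraries, among 3982 genes with a mean of at least 10. The genes most like Dcn were Ebf2 (0.22), Pid1 (0.28), Abca9 (0.29), Lama2 (0.34) and Pmp22 (0.37). Among the 9 other fibroblast genes Smoc2 was the closest to Dcn at 0.39, followed by Lum at 0.55 and Pdgfra at 0.58, with Thy1 at 1.09, Gsn at 1.31 and Apod at 1.74 the farthest. Ebf2, a transcription factor of the early B-cell factor family, had means of 24.3 scaled CPM in sham P56, 20.2 in MI P56, 21.0 in sham P1 and 7.69 in MI P1, and Lama2, the laminin chain of muscle basement membranes, 146, 114, 132 and 72.5 in this order. The genes most like Thy1 were Tril (0.20), Tmem164 (0.22), Zfp521 (0.23), Serinc5 (0.28) and Drosha (0.28). Of the other 9 fibroblast genes, none was nearer to Thy1 than Pdgfra at 0.78. These distances share the 13 libraries and their scaling.

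Genes of activated, scar-forming fibroblasts gave other values than the 10 at P56. Of 16 tested, 12 rose after MI and none fell, with a median log2 change of 2.54, and 8 of 26 other fibroblast genes rose and none fell, with a median of 0.74, where 3.42% of all genes were called in either direction. Tnc, encoding tenascin-C of healing matrix, rose by 4.62 ± 0.31 (log2 change ± SE, adjusted p = 8.32e-08 by limma), and Lox, the enzyme that cross-links collagen, by 4.47 ± 0.35. Col1a1, the main chain of fibrillar collagen, rose from 147 ± 90.1 (SD, n = 4) in sham P56 to 1439 ± 643 (SD, n = 3) scaled CPM in MI P56, with a log2 change of 3.38 ± 0.51 (SE) and an adjusted p of 9.12e-04. With all 16 libraries, where 0.174% of all genes were called, 7 of 16 and 2 of 26 rose. At P1 none of either list passed the test, with medians of 0.28 and -0.35.

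Relatives of the members by family were tested too. Of the 8 other leucine-rich proteoglycans tested, none passed the test for MI at P56, where Bgn (biglycan) had a log2 change of 1.58 ± 0.50 (SE) and an adjusted p of 0.0871. Prelp and Ecm2 were higher at P56 than at P1, in sham by 1.35 ± 0.31 and 1.30 ± 0.21 (log2 change ± SE), where 13.2% of all genes were called. The adjusted p of Prelp rose to as much as 0.154 with 1 library left out, and with all 16 libraries neither was called in sham (0.886 for Prelp and 0.0844 for Ecm2). Of the 16 fibulin and microfibril genes, 5 rose and 1 fell (Hmcn1) after MI at P56, against 3.42% called of all genes, and with all 16 libraries none of the 16 was called, against 0.174%. Fbn2, the fibrillin of developing tissue, was among those that rose, by 2.49 ± 0.41 (adjusted p = 0.0017, and 0.0816 with all 16 libraries), and it was lower at P56 than at P1 in sham by 4.09 ± 0.46 on the log2 scale (SE, adjusted p = 1.26e-05). None of 4 PDGF ligand and receptor genes and none of 4 gelsolin relatives passed the test for MI at either age, and of 4 SPARC relatives Sparc alone rose at P56, by 1.52 ± 0.36 (adjusted p = 0.0220 by limma, up to 0.160 with 1 library left out). Of the activated genes, 6 of 16 were lower and 1 higher at P56 in sham, where 13.2% of all genes were called, and 8 were higher and none lower at P56 after MI, where 5.35% were. With all 16 libraries these counts were 3 lower and 1 higher in sham, against 3.91% of all genes, and 2 higher after MI, against 0.106%.

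Markers of other cell types moved with several of these comparisons. Summed over 8 cardiomyocyte genes, sham P56 ran from 1268 to 2307 scaled CPM, MI P56 from 320 to 566, MI P1 from 96.1 to 339 and sham P1 from 146 to 222. All 8 fell after MI at P56, where 3.42% of all genes were called, and all 8 were higher at P56 in sham, where 13.2% were, the directions in which the Gsn mean differed. After MI, 1 of the 8 (Ttn) was called higher at P56, where 5.35% of all genes were called. The median log2 change of the 8 was 0.57 there, beside 3.00 for Gsn. Of the 8, 1 (Mb) was called lower after MI at P56 with all 16 libraries, against 0.174% of all genes, and 7 were higher with age in sham, against 3.91%. Of 8 blood endothelial genes, 4 fell after MI at P56 and 6 were higher at P56 in sham, with sums of 616 to 999 in sham P56, 236 to 473 in MI P56, 271 to 371 in MI P1 and 190 to 233 in sham P1. Of 8 pericyte and smooth muscle genes, 2 fell after MI at P56 and 3 were higher with age in sham, with sums of 450.1 to 1167 in sham P56 and 106 to 334 in the other groups. No blood endothelial and no pericyte gene was called for MI at P56 with all 16 libraries, and 3 and 1 were higher with age in sham.

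Leukocyte genes (7 of 8 listed in the table) summed to 5.35 to 9.19 scaled CPM in sham P56, where Cd3e was at 0 in every library, 16.6 to 85.4 in MI P56 and 13.9 to 41.1 in the neonatal groups. Of 6 tested 2 rose after MI at P56, as Mfap5 did, against 3.42% called of all genes, and 1 with all 16 libraries, against 0.174%. Mesothelial genes, 8 of 8 in the table, summed to 14.2 to 115 and had no called member in the comparisons of MI. Schwann cell genes, 4 of 7 in the table, summed to 1.22 to 19.4. Of 9 lymphatic genes 2 (Cdh5 and Tie1) fell after MI at P56, against 3.42% called of all genes, within sums of 1140.0 to 3418. Both lymphatic calls were lost with all 16 libraries and with 1 library left out, with adjusted p by limma of up to 0.222 for Cdh5 and 0.191 for Tie1. The part of these markers in the values of Gsn, Mfap5 and Apod was not tested.

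**Figure D4:**
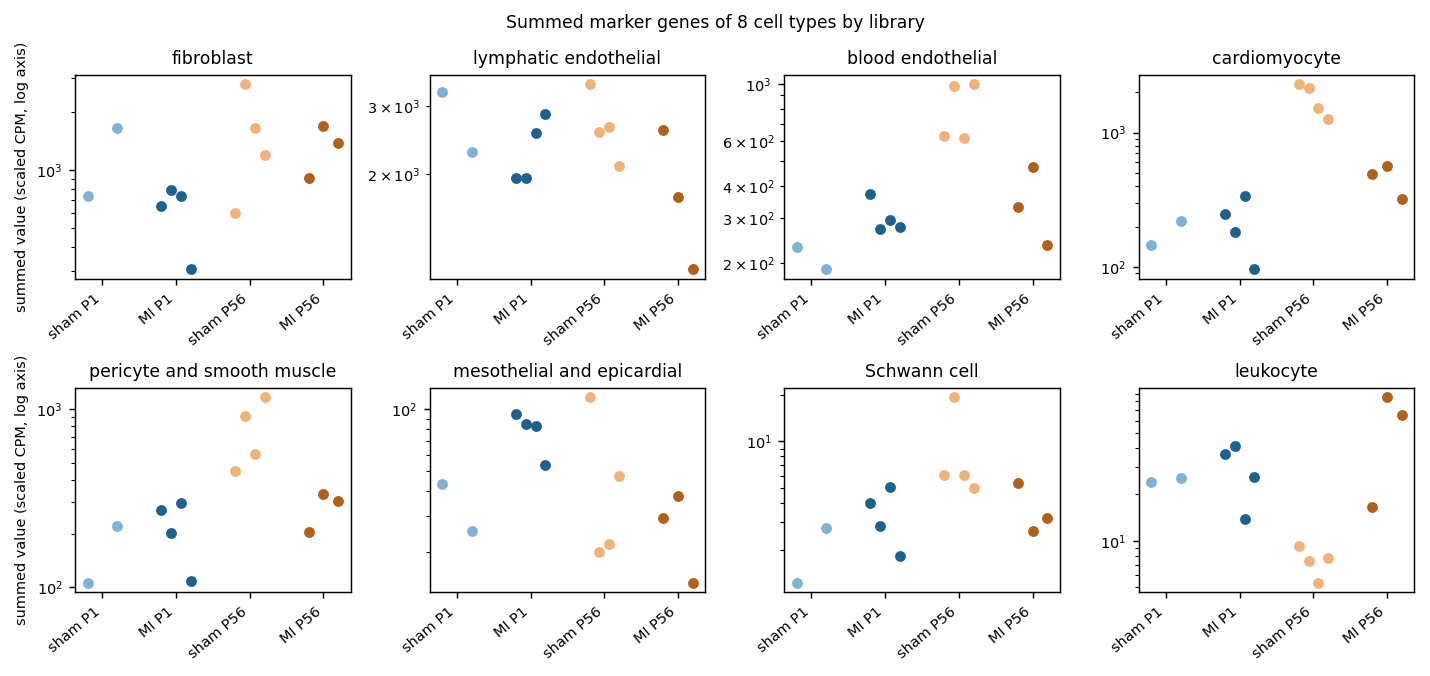
Summed values of marker genes of 8 cell types in scaled CPM (log axes) in each of the 13 libraries. Cardiomyocyte markers are highest in sham P56 (1268 to 2307), and the fibroblast sum spans 596 to 2794 there and 904 to 1691 in MI P56.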

How the data were processed

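Per the labels' protocols, cells were sorted by flow cytometry, RNA was amplified with the Ovation RNA-Seq System V2, and libraries were sequenced as single reads. Trimmomatic, STAR, HTSeq and edgeR with the mm10 (GRCm38) genome are named in the submitters' processing notes, with no versions. The deposited values are a signal, CPM by the authors' name. Dividing each column by its smallest step gave whole reads (within 0.01 read for 100% of values in 16 libraries), and the steps were those of TMM scaling. The recovered reads gave depth and entered edgeR and DESeq2.

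The main test was limma-trend (limma 3.58.1, R 4.3.3) on log2(value + 1) of genes that reached 1 in 4 libraries or more, fitted to 4 group means over the 13 libraries with a read on at least 10000 genes. Calls are two-sided, at a p under 0.05 after Benjamini-Hochberg adjustment across every gene in the fit. Changes on this scale understate those of low genes such as Apod at P1. Plain CPM had been assumed when the test was chosen. Alternatives were all 16 libraries, pseudocounts of 0.25 and 4, a value of at least 5, no filter, recomputed TMM, quantile normalization, only the groups compared, edgeR 4.0.16 (quasi-likelihood), DESeq2 1.42.0, a replicate block and each library left out. The method was tested on simulated data.

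The column numbers run 1, 2, 3 and 5 in each group while the labels run to 4, so column 5 took its group from its name. Levels per kilobase use the exon union of GENCODE M21, whose coordinates matched the table for all 10 genes. The members and lists were chosen with earlier results of these data known. All 10 members are named in each comparison. From each further list up to 4 called genes with the largest change were eligible per comparison, and where none was called 2 with the smallest p, and for likeness to Dcn and Thy1 the 5 nearest genes were taken.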

Additional observations from a re-analysis of the deposited data

Results flagged for a closer look

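Over the 10 genes and 4 groups of 4 libraries, 40 sets of values were checked for a single library far from the other 3. In all, 6 were found. Chance gives about 1 in 20 for a single set, but the 10 genes share their libraries, so the 6 cannot be set against that rate. Library 5 of MI P1 was the lowest for Dcn (126.3 scaled CPM) and for Gsn (9.093), and it was also the lowest of its group for Lum, Dpt, Pdgfra, Mfap5, Fbln1, Smoc2 and Apod. In the libraries with few genes detected, sham P1 library 1 held Smoc2 at 210.0, the highest of its group, and Thy1 at 5.259, the lowest, and sham P1 library 2 held Apod at 12.12, which is the value of 3 reads there. Sham P56 library 1 was the highest of its group for Thy1, at 59.59. The response of Mfap5 to MI differed between the ages, with an interaction of 3.1866 on the log2 scale by limma.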

How the results depend on the processing

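Of 1200 log2 changes of the 10 genes under alternatives, 1135 kept their direction and side of the threshold, 39 changed sign, 19 lost a call and 7 gained one. Members called for MI at P56, 1 in the 13-library fit, numbered 0 with all 16 libraries, with only the groups compared and with edgeR, 2 with DESeq2, and 0 to 1 when libraries were left out. The interaction, 1, fell to 0 with all 16 libraries, with the replicate block and, added after seeing the data, without it on the same 10 libraries, and was 0 to 1 with libraries left out. Age after MI, 3, became 1 with all 16 libraries and 5 with only the groups compared. Non-overlapping shares for MI at P1 and age in sham, 5 each, became 2 and 3 with all 16 libraries. Deviations of log2(value + 1) from the group mean correlated at -0.11 to 0.10 between same-numbered libraries of different groups. Between differently numbered libraries they correlated at -0.065 to 0.083, so the numbers were not taken as pairs. The fit with the replicate block holds only the 10 libraries numbered as in the labels, which leaves 1 sham P1 library, as does leaving out either sham P1 library, and that lone library is assumed to vary like the other groups.

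Signs turned for changes that were not called, and the cause was not tested. With the replicate block and these 10 libraries, MI at P1 gave 0.14 for Dcn, 0.0076 for Lum, 0.20 for Dpt, 0.35 for Pdgfra and 0.56 for Apod, the interaction -0.28 for Dcn, -0.66 for Smoc2 and -0.30 for Thy1, age in sham 0.092 for Lum, 0.29 for Pdgfra and 0.11 for Mfap5, and age after MI -0.0046 for Fbln1. Of these 12 signs, 8 also turned on the same 10 libraries without the block. With all 16 libraries, Thy1 was 0.45 for MI at P1, -1.34 for the interaction and 0.26 for age in sham, where Smoc2 was -0.39. The interaction of Smoc2 was -0.10 by edgeR and -0.14 by DESeq2, and that of Thy1 -0.054 and -0.073. With libraries left out in turn, MI at P56 ran from -0.50 to 0.25 for Dcn and -0.86 to 0.27 for Fbln1, MI at P1 from -0.49 to 0.10 for Apod, the interaction from -0.76 to 0.21 for Gsn, -0.53 to 0.72 for Smoc2 and -0.076 to 0.30 for Thy1, age in sham from -0.28 to 1.05 for Dcn and -0.66 to 0.048 for Pdgfra, and age after MI from -0.19 to 0.93 for Fbln1.

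All-gene calls, 446 for MI at P56, were 23 with 16 libraries, 199 with only the groups compared, 866 with DESeq2, 276 with the block on 10 libraries (256 on the same 10 without it) and 143 to 645 with a library left out. For the interaction, 63, they were 1 with 16 libraries, 34 with a pseudocount of 4, 324 with DESeq2, 2 with the block (4 without it) and 1 to 228. For age in sham, 1716, they were 518, 1023 with only the groups compared, 290 with the block (444 without it) and 644 to 2270, and for age after MI, 697, they were 14, 1215, 335 (321 without it) and 317 to 1344. For MI at P1, 0, they were 7 with only the groups compared and with DESeq2, and 0 to 2 under the other alternatives. With all 16 libraries the median of all genes moved to -0.17, 0.39, -0.50, 0.36 and -0.18 in the 5 comparisons.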
